A study of Mus musculus with 60 samples.

Results

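The 42 genes described here act in mitosis, the step of the cell cycle in which the copied chromosomes are separated into daughter cells. They were taken as a list of gene symbols and matched by Ensembl identifier to the rows of 3 tables of gene counts from mouse cholangiocyte-derived liver organoids. All 42 were found in each table, among 23440 genes for the comparison of cultures, 23068 for the comparison of passages and 28773 for single organoids. All 42 also passed the filter on low counts in each table, which kept 12699, 13738 and 13927 genes.

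At the start of mitosis, cyclin B and its kinase partner are switched on, chromosomes are condensed, and the kinetochore is assembled on each centromere to hold the spindle microtubules. A checkpoint holds the cell until every kinetochore is attached, after which the anaphase-promoting complex marks cyclin B and securin for destruction and the cell divides. Most of these genes are transcribed in G2 phase and mitosis and their mRNAs are scarce in resting cells, so their level in a bulk sample follows the share of cycling cells as well as the level in each cell. These contributions cannot be told apart in the data described here. The liver epithelium rarely divides in a healthy animal, whereas bile duct cells in organoid culture are kept in cycle by growth factors.

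Cultures were made from intrahepatic bile ducts of 3-month-old male C57BL/6N mice and carried no transgene. For the comparison of cultures, organoids from 3 pools of mice were either kept in domes, which are drops of Matrigel, or moved to a shaking suspension with little Matrigel, with 3 libraries for each condition. For the comparison of passages, bulk cultures of Set 1, Set 3 and Set 4, each from 1 mouse, were collected at passage 4 and at passage 11 with 2 technical replicates, which were summed. Single organoids were picked from suspension cultures of 4 mice, named Set 1 to Set 4, of which the 35 organoids kept by the study were used (8, 10, 5 and 12). Set 1 was picked at passage 11, Set 2 and Set 3 at passage 3 and Set 4 at passage 4, so that set, mouse and passage cannot be told apart between single organoids.

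Libraries held 1776490 to 14761853 counts in the comparison of cultures, 1486347 to 5532630 after summing in the comparison of passages, and 1059002 to 11175868 among the single organoids. The genes described here contributed 660 to 35784 of these counts. All 9 cholangiocyte markers, among them Epcam, Krt19 and Sox9, were detected in every group. Of 5 endothelial markers, Kdr and Cdh5 were at 0 in every group, whereas Pecam1 and Lyve1 were detected in every group and Stab2 in single organoids of Sets 1, 2 and 4. Of 6 macrophage and leukocyte markers, 2 or 3 were at 0 in each group, Clec4f among them in all, and the others were detected. Levels of a gene are given in CPM, which are counts scaled to the normalised library size and compared only within a gene. Sums over marker genes are scaled to the library total without this normalisation. The value after ± is a standard error of a log2 fold-change, calculated from the fold-change and the F statistic of its test. Hepatocyte markers summed to 225 to 2548 CPM with Cps1 at 0 in all groups but Set 2. The endothelial markers summed to at most 4.01 CPM, and the macrophage and leukocyte markers to at most 67.4 CPM, the latter in domes.

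Genes of G2 phase and mitosis often carry a short element near the start of transcription, the cell cycle genes homology region, together with CCAAT boxes bound by NF-Y. The letters TTTGAA or TTCGAA of this element and the letters CCAAT were searched on both strands in RefSeq windows of 300 bases, from 250 before to 50 after the annotated start (GRCm38.p6), which were at hand for 36 of the 42 genes. Either form of the element was found in 28 of the 36 genes (77.8%), compared with 21.7% of 27025 genes with such a window. CCAAT was found in 28 of 36 (77.8%) compared with 41.1% of all genes, and 24 of 36 (66.7%) held both compared with 9.65%. The windows of 6 genes are shown, chosen as those with the largest fold-change between cultures among the genes with a match. Capitals mark TTTGAA and CCAAT, which read TTCAAA and ATTGG where the match lies on the other strand.

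Cenpf (chr1:189688037-189688336, minus strand): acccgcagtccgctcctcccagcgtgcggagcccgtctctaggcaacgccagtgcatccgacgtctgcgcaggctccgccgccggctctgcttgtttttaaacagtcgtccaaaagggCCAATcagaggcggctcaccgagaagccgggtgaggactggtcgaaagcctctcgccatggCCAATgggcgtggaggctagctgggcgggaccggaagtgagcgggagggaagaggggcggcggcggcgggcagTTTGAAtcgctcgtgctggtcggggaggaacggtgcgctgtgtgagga
Kif20b (chr19:34922108-34922407, plus strand): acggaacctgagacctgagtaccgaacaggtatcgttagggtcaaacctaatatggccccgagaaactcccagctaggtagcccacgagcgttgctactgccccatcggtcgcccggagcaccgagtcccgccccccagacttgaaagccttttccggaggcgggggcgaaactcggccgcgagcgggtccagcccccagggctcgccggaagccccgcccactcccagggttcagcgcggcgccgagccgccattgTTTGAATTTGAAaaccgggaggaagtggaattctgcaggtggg
Ttk (chr9:83834439-83834738, plus strand): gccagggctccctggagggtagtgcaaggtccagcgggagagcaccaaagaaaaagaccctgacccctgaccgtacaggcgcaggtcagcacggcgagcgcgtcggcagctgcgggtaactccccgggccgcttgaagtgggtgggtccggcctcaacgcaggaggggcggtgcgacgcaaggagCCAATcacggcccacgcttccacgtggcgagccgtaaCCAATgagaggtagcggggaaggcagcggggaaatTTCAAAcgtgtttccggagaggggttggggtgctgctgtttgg
Hmgb2 (chr8:57511593-57511892, plus strand): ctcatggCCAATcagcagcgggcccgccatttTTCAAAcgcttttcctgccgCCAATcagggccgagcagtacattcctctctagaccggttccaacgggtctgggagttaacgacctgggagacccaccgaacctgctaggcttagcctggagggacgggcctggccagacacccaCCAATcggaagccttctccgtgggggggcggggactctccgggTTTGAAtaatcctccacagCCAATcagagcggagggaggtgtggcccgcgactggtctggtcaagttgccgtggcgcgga
Anln (chr9:22389157-22389456, minus strand): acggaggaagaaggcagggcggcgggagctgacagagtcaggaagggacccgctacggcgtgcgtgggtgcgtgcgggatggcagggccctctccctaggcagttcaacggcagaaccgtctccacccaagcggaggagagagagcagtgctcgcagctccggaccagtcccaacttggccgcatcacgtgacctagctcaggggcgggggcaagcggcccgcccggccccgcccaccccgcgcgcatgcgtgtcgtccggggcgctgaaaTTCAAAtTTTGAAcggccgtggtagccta
Ncapd2 (chr6:125191537-125191836, minus strand): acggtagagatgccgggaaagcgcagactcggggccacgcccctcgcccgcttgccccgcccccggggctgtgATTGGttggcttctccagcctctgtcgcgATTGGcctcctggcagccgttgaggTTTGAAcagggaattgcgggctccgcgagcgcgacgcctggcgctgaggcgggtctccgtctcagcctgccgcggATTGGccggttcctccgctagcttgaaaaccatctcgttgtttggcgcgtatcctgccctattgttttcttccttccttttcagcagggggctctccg

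In Cenpf, Kif20b, Ttk and Anln the element lay 2 to 28 bases after the annotated start, and in Hmgb2 the copies lay 30 and 218 bases before it. The only copy in Ncapd2 lay 123 bases before the start. Kif20b and Anln held 2 copies each and no CCAAT, whereas Hmgb2 held 4 CCAAT boxes. A match describes letters in this window and does not show that a factor binds there.

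The comparison of cultures asked how expression differed between organoids kept in domes and in suspension, and mitosis and kinetochore genes were lower in domes. Of the 42 genes, 39 fell in domes (adj. P-value below 0.05), compared with 14.7% of all genes tested that were lower in domes, 15% that were higher and 29.8% called in either direction. None of the 42 rose in domes in edgeR, limma-voom or DESeq2, none had an unadjusted P-value below 0.05 in that direction, and all 42 log2 fold-changes were negative. Their median log2 fold-change was −1.77, next to −0.04 for all genes tested, and in 40 of 42 every dome library lay below every suspension library, as in 25.8% of all genes. The 3 genes that were not called were Cdc20, Plk1 and Psrc1.

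All 6 genes of the centromere and kinetochore fell, with a median log2 fold-change of −2.19. Cenpf, a large protein of the outer kinetochore and nuclear envelope (chr1:189640606-189688107), had the largest change of the 42 genes. It was at 8.6, 2.20 and 5.50 CPM in domes 1 to 3 and at 158, 73.8 and 71.4 CPM in suspension (log2 fold-change −3.96 ± 0.44, adj. P-value = 0.000813). The kinesin Cenpe, which moves chromosomes to the spindle equator, was at 3.43, 2.20 and 6.60 CPM in domes and 64.0, 29.3 and 32.3 CPM in suspension (log2 fold-change −3.41 ± 0.42, adj. P-value = 0.00117). For both genes every dome lay far below every suspension culture. Nuf2, a subunit of the complex that grips microtubules, was at 1.98, 1.47 and 2.20 CPM in domes against 8.00, 10.4 and 9.09 CPM (log2 fold-change −2.22 ± 0.31, adj. P-value = 0.0017). Cenpa, the histone H3 variant that marks centromeres, and its chaperone Hjurp fell the least in this class, with log2 fold-changes of −1.21 and −1.05.

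Of the 11 mitotic kinases, their partners and checkpoint genes, 10 fell. Ttk, the kinase that starts the checkpoint, was at 1.37, 1.47 and 1.65 CPM in domes and 9.47, 7.33 and 9.37 CPM in suspension, a log2 fold-change of −2.60 ± 0.33 (adj. P-value = 0.00123). The spread between replicates was narrow in both conditions although dome 2 held only 2 counts of Ttk and dome 3 held 3. Cdc25c, the phosphatase that activates the cyclin B kinase, was at 5.41, 0.733 and 2.75 CPM against 20.0, 14.4 and 16.4 CPM (log2 fold-change −2.11 ± 0.39, adj. P-value = 0.00486). Aurka, the kinase of the spindle poles, was at 29.2, 11.7 and 29.1 CPM against 89.6, 88.9 and 106 CPM (log2 fold-change −1.97 ± 0.29, adj. P-value = 0.00204). Plk1, a kinase with tasks from mitotic entry to cytokinesis, was the only member of this class that was not called, at 14.6, 5.87 and 42.9 CPM in domes and 35.8, 31.4 and 38.6 CPM in suspension. Dome 3 exceeded all suspension cultures in Plk1, and the log2 fold-change of −0.76 ± 0.48 was within the spread between domes (adj. P-value = 0.249).

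The 3 genes of the anaphase-promoting complex class had the smallest median change, −1.04. Ube2c, the ubiquitin-conjugating enzyme of the complex, was at 83.9, 49.9 and 97.3 CPM in domes and 231, 224 and 208 CPM in suspension (log2 fold-change −1.51 ± 0.24, adj. P-value = 0.00295). Cdca3, which acts with a ubiquitin ligase on the inhibitor Wee1, was at 52.8, 25.7 and 60.5 CPM against 103, 94.3 and 91.3 CPM (log2 fold-change −1.03 ± 0.27, adj. P-value = 0.0192). Cdc20, the activator that carries substrates to the complex, was at 48.6, 16.1 and 66.0 CPM against 95.5, 81.8 and 96.8 CPM. The conditions did not overlap in Cdc20, but the log2 fold-change of −1.04 ± 0.37 missed the threshold (adj. P-value = 0.0556). It passed when culture number was added as a replicate block (log2 fold-change −1.18, adj. P-value = 0.00838).

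All 5 genes of chromosome structure fell, and their median of −2.27 was the largest of the 6 classes. Smc4, the ATPase core of condensin, was at 16.4, 9.53 and 25.8 CPM in domes and 130, 91.0 and 85.5 CPM in suspension (log2 fold-change −2.55 ± 0.32, adj. P-value = 0.00117). Hmgb2, a chromatin protein that bends DNA, was at 153, 81.4 and 104 CPM against 965, 587 and 377 CPM (log2 fold-change −2.50 ± 0.37, adj. P-value = 0.00201). The suspension cultures differed widely in Hmgb2, and the lowest of them still exceeded the highest dome. The condensin subunit Ncapd2 was at 6.70, 4.40 and 7.15 CPM against 32.6, 29.1 and 30.1 CPM, with the smallest P-value of the 42 genes (log2 fold-change −2.27 ± 0.24, adj. P-value = 0.00076). Top2a, the topoisomerase that untangles sister chromatids, fell with a log2 fold-change of −2.06 and Cdca2 with −1.72.

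Of 11 genes of the spindle and microtubules, 10 fell, with a median of −1.87. Kif11, the kinesin that pushes spindle poles apart, was at 1.83, 1.47 and 3.30 CPM in domes and 9.47, 11.1 and 8.26 CPM in suspension (log2 fold-change −2.20 ± 0.35, adj. P-value = 0.00263). The microtubule binder Ckap2 was at 4.34, 0.733 and 3.85 CPM against 13.5, 12.1 and 19.9 CPM (log2 fold-change −2.10 ± 0.39, adj. P-value = 0.00478). Tpx2, which activates Aurka on the spindle, was at 8.6, 4.40 and 12.6 CPM against 37.9, 32.9 and 32.4 CPM (log2 fold-change −1.97 ± 0.29, adj. P-value = 0.00204). Psrc1 was not called, and dome 3 at 21.4 CPM lay within the range of suspension cultures (21.3 to 25.3 CPM, log2 fold-change −0.44 ± 0.26, adj. P-value = 0.214). Dlgap5 had no count in dome 2, and its other dome libraries were at 2.06 and 3.85 CPM against 5.44 to 9.57 CPM in suspension.

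All 6 genes of cytokinesis fell, with a median of −2.04. The kinesin Kif20b was at 1.07, 2.93 and 1.10 CPM in domes and 15.4, 11.1 and 8.13 CPM in suspension (log2 fold-change −3.08 ± 0.45, adj. P-value = 0.00196). Anln, the scaffold of the contractile ring, was at 2.13, 0.733 and 3.30 CPM against 10.1, 9.69 and 11.6 CPM (log2 fold-change −2.29 ± 0.35, adj. P-value = 0.00239). Ect2, the exchange factor that activates RhoA at the equator, was at 5.86, 1.47 and 8.80 CPM against 32.6, 23.6 and 25.1 CPM (log2 fold-change −2.25 ± 0.37, adj. P-value = 0.00314). Kif20b was highest among the domes in dome 2, in contrast to Anln and Ect2, which were lowest there. These values of dome 2 rest on only 4 counts of Kif20b, 1 of Anln and 2 of Ect2.

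**Figure D1:**
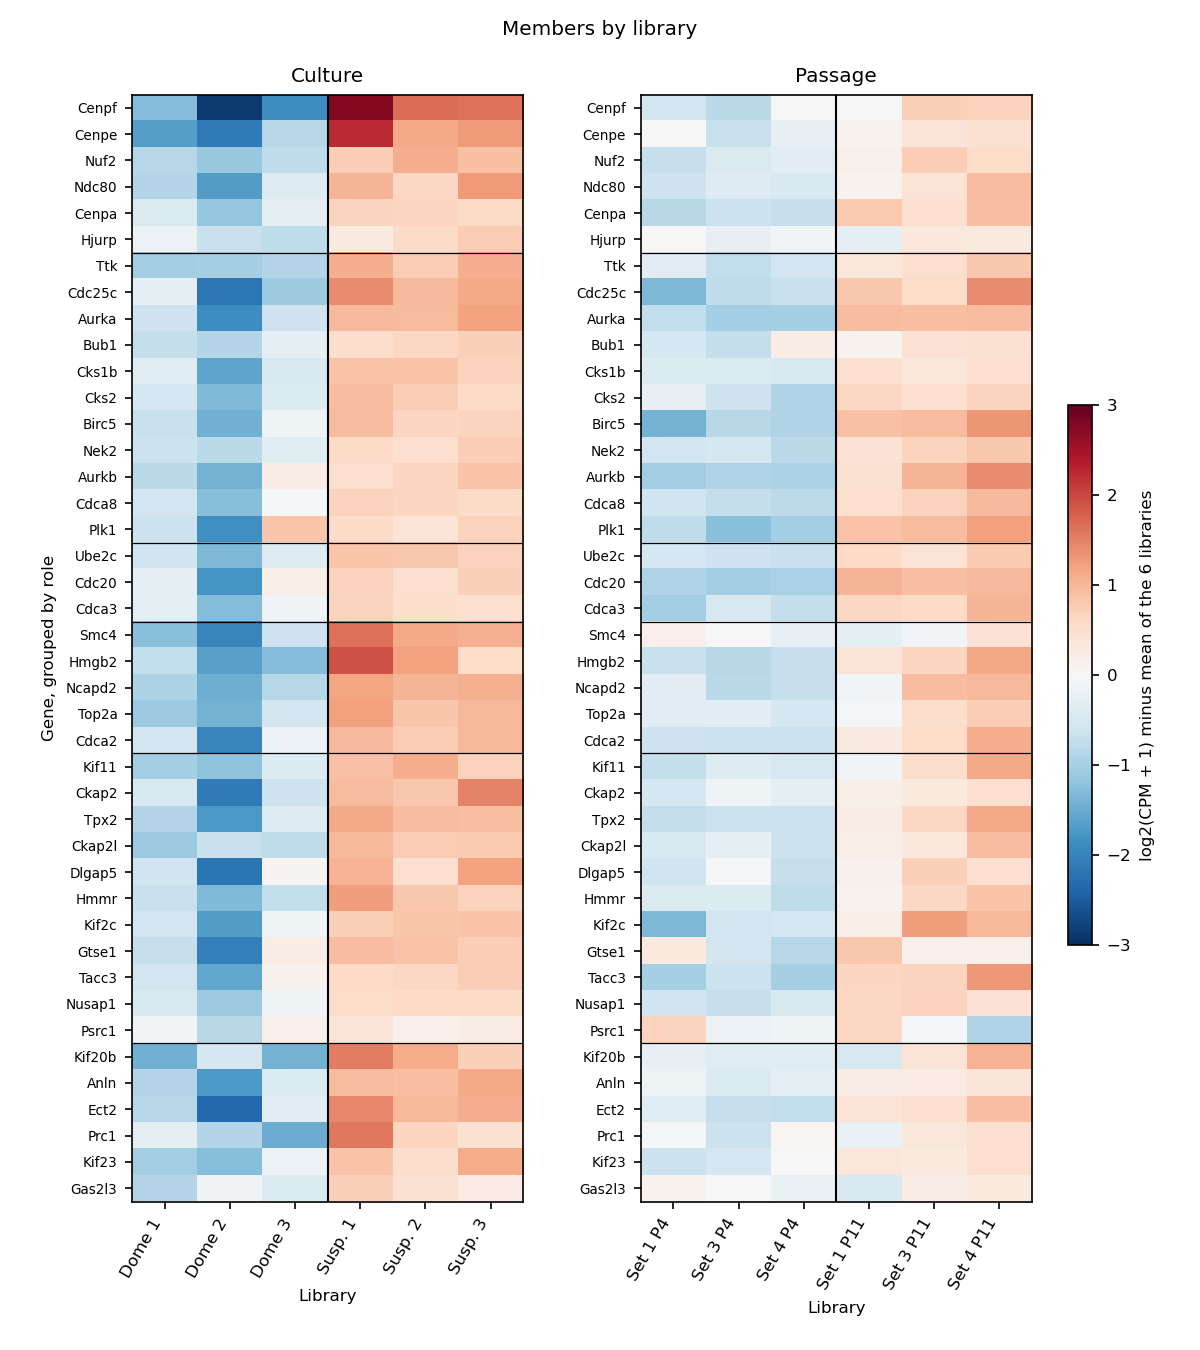
Heat maps of log2(CPM + 1) minus the mean of the 6 libraries for each of the 42 genes (rows, grouped by role, with lines between classes) in the libraries of the culture and passage comparisons (columns). Suspension and passage 11 libraries are mostly red (above the mean), and dome 2 is the darkest blue of the domes in 36 of 42 rows. Plk1 is above its mean in dome 3 and Psrc1 is below its mean in Set 4 at passage 11.

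Dome 2 was the lowest dome in 36 of the 42 genes, with a mean log2 CPM over the 42 genes of 2.48 compared with 3.34 and 3.64 in domes 1 and 3 and 4.96 to 5.19 in suspension. Without dome 2, 40 of the 42 genes fell, Cdc20 among them, and the median log2 fold-change was −1.65. Without dome 3, Cdc20 and Plk1 both passed. Aurkb, Gas2l3, Gtse1 and Tacc3 were no longer called without dome 1 or without any single suspension library, nor was Cdca3 without any single suspension library. Dlgap5 was lost without dome 1, suspension 1 or suspension 3, Prc1 without suspension 1 and Hjurp without suspension 3. Mitochondrial genes made up 1.64 to 2.02% of counts in domes and 3.72 to 4.02% in suspension. The 6 macrophage and leukocyte markers summed to 6.16 to 67.4 CPM in domes, highest in dome 2, against 3.82 to 10.2 CPM in suspension. Of these markers, Ptprc, Cd68 and Csf1r were detected in both conditions and Adgre1 in domes, whereas Lyz2 and Clec4f were at 0 in both. The 9 cholangiocyte markers summed to 12608 to 21530 CPM in domes and 11343 to 12219 CPM in suspension. Their part in the result was not tested. The proliferation marker Mki67 fell as well, from 36.0, 22.5 and 34.2 CPM in suspension to 5.18, 9.53 and 6.60 CPM in domes (log2 fold-change −2.26 ± 0.30, adj. P-value = 0.00149). Unlike these 36 genes, Mki67 was highest among the domes in dome 2, on 13 counts.

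Other genes of these processes were taken from lists by function, and their counts can be read against the 14.7% of all genes that were lower in domes. Among other kinetochore and centromere genes 22 of 32 fell in domes, among them the kinetochore scaffold Knl1 (log2 fold-change −3.36), and among other checkpoint and cyclin B kinase genes 16 of 20 fell, led by Kntc1 (−2.97) and Bora (−2.39). Of other condensin and cohesin genes 15 of 20 fell, led by Smc2 (−3.03) and Ncapg (−2.96), and of other mitotic kinesins and cytokinesis genes 13 of 16 fell, led by Aspm (−4.55) and Kif18b (−2.71). DNA replication genes fell in 26 of 30 cases, led by Cdc45 (−2.38) and Pola1 (−2.27). Subunits and regulators of the anaphase-promoting complex were mixed, since 5 of 19 fell, led by the inhibitor Fbxo5 (−2.53) and separase Espl1 (−1.53), 3 rose, namely Fzr1 (0.81), Anapc2 (0.62) and Anapc13 (0.55), and 11 were not called. Of 19 transcription factors of G2 and mitotic genes 5 fell, led by E2f7 (−2.28) and E2f8 (−2.20), and 14 were not called.

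**Figure D2:**
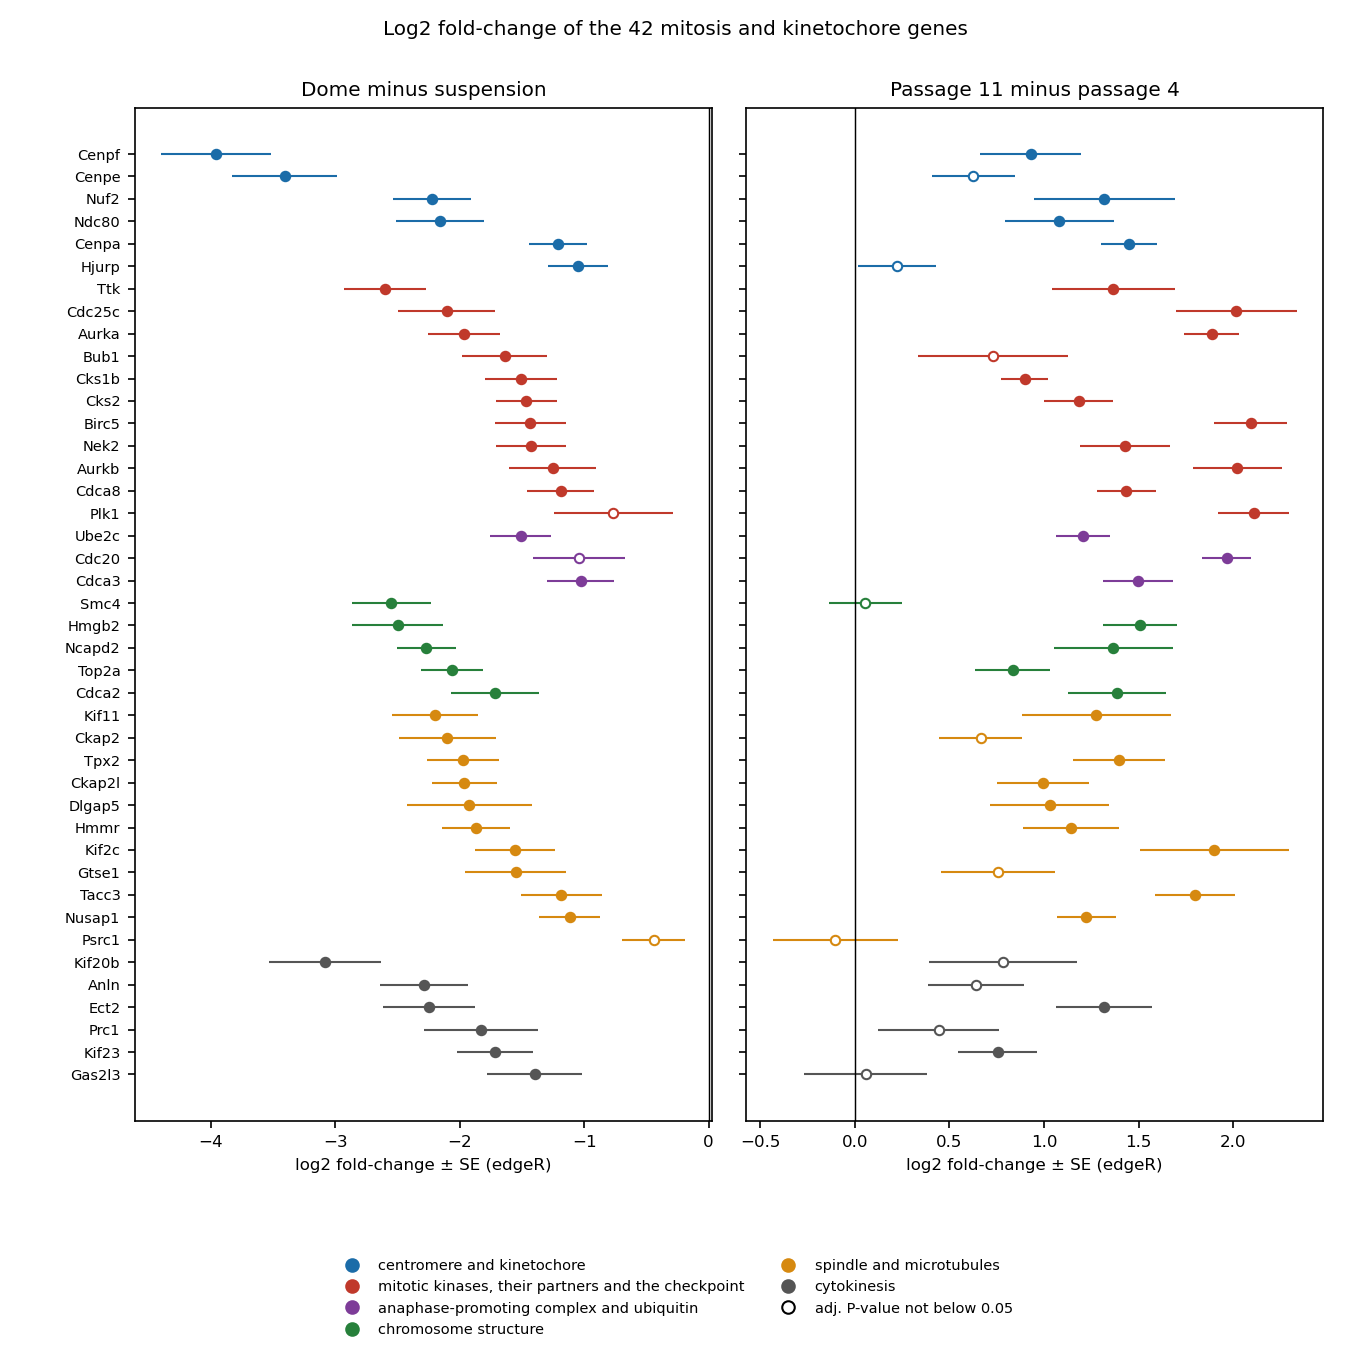
Log2 fold-change with its standard error (x axis) for each of the 42 genes (y axis, coloured by role) for dome minus suspension (left) and passage 11 minus passage 4 (right), with open circles for genes that did not pass an adj. P-value of 0.05. All points on the left lie below 0, from −3.96 for Cenpf to −0.44 for Psrc1, and all on the right except Psrc1 lie above 0.

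Mitosis and kinetochore genes were higher in the bulk cultures labelled passage 11 than in those labelled passage 4. Of the 42 genes, 31 rose, compared with 10.1% of all genes tested that were higher at passage 11, 10.1% that were lower and 20.3% called in either direction. None fell in edgeR, limma-voom or DESeq2, and none had an unadjusted P-value below 0.05 in that direction. The median log2 fold-change was 1.21, next to −0.05 for all genes. The mean log2 CPM over the 42 genes was 3.70 to 3.75 in the cultures at passage 4 and 4.61 to 5.09 at passage 11, so the spread between sets was wider at passage 11. The direction rests on the passage given in the labels. The text of the study places proliferation and cell cycle terms among the genes lower at passage 11. Its figure legend, in contrast, describes the panel of these terms as higher at passage 11. Among single organoids, where passage cannot be told apart from mouse and set, the called genes were lower in Set 1 (passage 11) than in each set of passage 3 or 4.

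The median log2 fold-change was highest for the anaphase-promoting complex class (1.50) and for kinases, partners and checkpoint genes (1.44). All 3 genes of the former class rose. Cdc20 (chr4:118432901-118437343) had the smallest P-value of the 42 genes, at 34.5, 32.1 and 33.4 CPM in Sets 1, 3 and 4 at passage 4 and 134, 125 and 132 CPM at passage 11 (log2 fold-change 1.97 ± 0.13, adj. P-value = 7.35e-05). Ube2c was at 123, 113 and 109 CPM and at 263, 232 and 301 CPM (log2 fold-change 1.20 ± 0.14, adj. P-value = 0.000892). Among the kinases, partners and checkpoint genes 10 of 11 rose. Aurka was at 21.0, 17.1 and 17.4 CPM at passage 4 and 68.7, 67.4 and 68.7 CPM at passage 11 (log2 fold-change 1.89 ± 0.15, adj. P-value = 0.000164). Cdc20 and Aurka thus differed little between sets within a passage. Plk1 was at 14.8, 10.2 and 12.1 CPM and at 47.6, 50.9 and 62.3 CPM (log2 fold-change 2.11 ± 0.19, adj. P-value = 0.000343). Birc5, the survivin subunit of the chromosomal passenger complex, and Aurkb, its kinase, rose with log2 fold-changes of 2.09 and 2.02. Bub1 was not called, at 2.07, 1.73 and 4.22 CPM and 3.81, 4.97 and 5.09 CPM.

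The other classes had medians from 0.70 (cytokinesis) to 1.37 (chromosome structure). Of 6 genes of the centromere and kinetochore 4 rose. Cenpa was at 67.9, 77.3 and 74.8 CPM at passage 4 and 209, 169 and 226 CPM at passage 11 (log2 fold-change 1.45 ± 0.15, adj. P-value = 0.000469), and Ndc80, a subunit of the complex with Nuf2, was at 4.41, 5.37 and 5.10 CPM and 8.08, 10.1 and 15.3 CPM (log2 fold-change 1.08 ± 0.29, adj. P-value = 0.025). Cenpe and Hjurp were not called. Of 5 genes of chromosome structure 4 rose. Hmgb2 was at 66.1, 59.7 and 64.9 CPM and 138, 167 and 240 CPM (log2 fold-change 1.51 ± 0.19, adj. P-value = 0.00122). Cdca2, which brings a phosphatase to anaphase chromosomes, was at 5.96, 5.76 and 5.81 CPM and 11.9, 14.5 and 21.6 CPM (log2 fold-change 1.39 ± 0.26, adj. P-value = 0.0062). Smc4 was not called, at 63.0, 57.4 and 47.9 CPM and 47.1, 53.9 and 77.0 CPM (log2 fold-change 0.06 ± 0.19, adj. P-value = 0.873).

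Of 11 genes of the spindle and microtubules 8 rose, and the largest of these changes was that of Kif2c (log2 fold-change 1.9 ± 0.39, adj. P-value = 0.00929). Tacc3, which stabilises kinetochore fibres, was at 15.3, 19.8 and 15.3 CPM at passage 4 and 50.0, 50.7 and 78.9 CPM at passage 11 (log2 fold-change 1.80 ± 0.21, adj. P-value = 0.000878). Nusap1, which bundles microtubules near chromosomes, was at 18.4, 17.1 and 20.4 CPM and 44.2, 46.7 and 38.8 CPM (log2 fold-change 1.22 ± 0.15, adj. P-value = 0.00114). Ckap2, Gtse1 and Psrc1 were not called, although Gtse1 passed when the set was added as a replicate block (log2 fold-change 0.74, adj. P-value = 0.0158). Of 6 cytokinesis genes only Ect2 and Kif23 rose, with Anln, Kif20b, Prc1 and Gas2l3 not called. Ect2 was at 6.22, 4.80 and 4.58 CPM and 11.4, 11.9 and 16.5 CPM (log2 fold-change 1.3 ± 0.25, adj. P-value = 0.00701), and Kif23 was at 13.2, 14.2 and 21.3 CPM and 26.9, 26.2 and 30.5 CPM (log2 fold-change 0.75 ± 0.21, adj. P-value = 0.0294).

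The direction was shared by the 3 sets for most genes. The median log2 difference between passages over the 42 genes was 0.85 in Set 1, 1.12 in Set 3 and 1.57 in Set 4. In Set 1, both technical replicates of passage 11 lay above both of passage 4 in 32 genes (30.9% of all genes) and below in 2 (34.9%). In Set 3 the counts were 39 above (31%) and 0 below (31.1%), and in Set 4 they were 35 above (24.2%) and 1 below (34.7%). The genes that lay below were Hjurp and Smc4 in Set 1 and Psrc1 in Set 4, where Psrc1 went from 38.9 to 22.3 CPM. Kif23, Ndc80, Nuf2, Kif11, Cenpf, Dlgap5, Ttk, Top2a, Ncapd2, Hmmr and Ckap2l each lost their call when a certain culture was left out, with the most lost (10 genes) without Set 3 at passage 11. Without Set 1 at passage 4 Cenpe and Gtse1 passed, and without Set 1 at passage 11 Kif20b passed. Each set has 1 culture per passage, so these values have no replicate beyond technical replicates.

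Mki67 was at 7.00, 11.1 and 11.4 CPM at passage 4 and at 11.2, 22.1 and 10.8 CPM at passage 11. The passages overlapped, and Mki67 was not called (log2 fold-change 0.61 ± 0.31, adj. P-value = 0.191). Mitochondrial genes made up 1.99 to 2.63% of counts at passage 4 and 0.895 to 1.71% at passage 11. Hepatocyte markers summed to 307, 582 and 757 CPM in Sets 1, 3 and 4 at passage 4 and 732, 837 and 1214 CPM at passage 11, with 7 and 8 of 9 detected and Cps1 at 0 in both. The part of either in the result was not tested. The counts for lists of other genes can be read against the 10.1% of all genes that were higher at passage 11 and the 10.1% that were lower. DNA replication genes rose in 26 of 30 cases, led by Rrm2 (log2 fold-change 3.01) and Cdc6 (2.19). Among other checkpoint and cyclin B kinase genes 14 of 20 rose, led by cyclin A2 (Ccna2, 2.41) and Pbk (2.02), among other kinetochore and centromere genes 14 of 31 rose, led by Ska1 (1.88) and Cenpm (1.63), and among other mitotic kinesins and cytokinesis genes 8 of 15 rose, led by Fam83d (2.35) and Depdc1a (2.03). Of 20 other condensin and cohesin genes 4 rose, led by Cdca5 (1.47) and Ncaph (1.31), and the cohesin loader Nipbl fell (−0.93). Most of this list was not called, and its median log2 fold-change was 0.14. Of 19 genes of the anaphase-promoting complex 5 rose, led by Fbxo5 (1.74) and Anapc5 (0.96), and of 19 transcription factors 8 rose, led by E2f8 (2.20) and E2f1 (1.82).

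Between sets of single organoids, fewer of the 42 genes differed. In Set 1 compared with Set 2, 14 genes were called and all 14 were lower in Set 1 (14.3% of all genes were called). In Set 1 compared with Set 4, 12 were called and all 12 were lower in Set 1 (20% of all genes), and in Set 1 compared with Set 3, 3 were called and all 3 were lower in Set 1 (9.43%). Between the sets of passages 3 and 4 the counts were 1 for Set 2 against Set 3 (3.93% of all genes), 4 for Set 2 against Set 4 (12.4%) and 3 for Set 3 against Set 4 (11.6%). The share of the 42 genes that were called was thus below that of all genes in 4 of the 6 comparisons. All organoids of a set come from 1 mouse, so the P-values between sets measure the spread between organoids and not between animals. The comparisons also share organoids, since each set enters 3 of them.

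Birc5 (chr11:117849237-117855743) was called in 4 of the 6 comparisons, more than any other of the 42 genes. Its lowest, median and highest values were 49.5, 103 and 122 CPM in Set 1, 76.3, 133 and 179 CPM in Set 2, 96.4, 104 and 113 CPM in Set 3 and 128, 170 and 225 CPM in Set 4. The organoids of Set 4 thus lay above all organoids of Set 1 and Set 3 (log2 fold-change of Set 1 minus Set 4 −0.88 ± 0.15, adj. P-value = 5.47e-05, and of Set 3 minus Set 4 −0.71 ± 0.17, adj. P-value = 0.00529). Ube2c and Cdca3 were likewise highest in Set 4, with medians of 82.3 and 58.7 CPM in Set 1 and 165 and 106 CPM in Set 4, and both were lower in Sets 1, 2 and 3 than in Set 4 (adj. P-value = 9.17e-05, 0.0373 and 0.0077 for Ube2c and 0.00138, 0.0284 and 0.00948 for Cdca3).

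Ttk, Cks2 and Kif2c were lower in Set 1 than in each other set. Ttk ranged from 4.41 to 14.1 CPM with a median of 7.89 CPM in Set 1, whereas the medians of Sets 2, 3 and 4 were 16.0, 17.7 and 16.0 CPM (log2 fold-changes −0.89, −0.86 and −0.78). Cks2, a small subunit of cyclin-dependent kinase complexes, had medians of 43.7, 59.7, 65.8 and 66.6 CPM in Sets 1 to 4, and Kif2c, a kinesin that takes microtubules apart, had medians of 7.25, 9.72, 10.4 and 11.0 CPM. Cks1b, Aurka, Plk1, Cdca8, Cenpa and Aurkb were each called in 2 comparisons. Cks1b, Plk1 and Cdca8 were lower in Set 1 than in Sets 2 and 4, with log2 fold-changes between −0.90 and −0.49. Aurka was highest in Set 2, at 69.3 to 186 CPM with a median of 102 CPM, above Set 1 (log2 fold-change of Set 1 minus Set 2 −0.86 ± 0.20, adj. P-value = 0.00234) and Set 3 (0.68 ± 0.23, adj. P-value = 0.0431). When the 7 organoids left out by the study were returned, 3 genes in place of 14 were called between Set 1 and Set 2, 10 in place of 12 between Set 1 and Set 4 and 2 in place of 3 between Set 3 and Set 4, with 0 in the other comparisons. Set 3 has the fewest organoids, and without its organoid 1 or 3 the count between Set 1 and Set 3 was 1. Without organoid 1, 3, 4 or 6 Aurka was not called between Set 2 and Set 3, and without organoid 1 the count between Set 3 and Set 4 was 5.

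The level of the 42 genes varied between organoids of the same set. The mean log2 CPM over the 42 genes ranged from 4.49 to 6.00 in Set 1, 5.65 to 6.44 in Set 2, 5.58 to 6.12 in Set 3 and 5.34 to 6.19 in Set 4, a fold of 2.84, 1.72, 1.46 and 1.80 between the lowest and the highest organoid. All 42 genes averaged 10 counts or more per organoid. The median standard deviation of log2 CPM within sets was 0.492 for the 42 genes and 0.426 for all 10601 genes at this level, and the median biological coefficient of variation was 0.301 and 0.261. The most variable of the 42 genes were Anln (0.761), Ckap2 (0.702), Prc1 (0.702), Dlgap5 (0.683) and Hmmr (0.664), which act on the spindle or in cytokinesis. Anln ranged from 8.45 to 45.1 CPM in Set 1 and from 13.8 to 79.7 CPM in Set 2. The least variable were Birc5 (0.309), Hjurp (0.312), Cdca8 (0.313), Cks2 (0.332) and Cdca3 (0.351), and Hjurp ranged from 28.7 to 77.7 CPM in Set 1 and from 47.2 to 83.9 CPM in Set 2.

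The 42 genes did not vary as a single unit between organoids. After subtraction of set means, the median Pearson correlation over the 861 pairs of genes was 0.427 in 35 organoids, with a range from −0.641 to 0.971. Over all pairs of the 10601 genes the median was 0.00139 and the 90th percentile was 0.525, so values such as 0.427 were not rare among other genes. These values are descriptions, since the organoids share 4 animals and the genes share libraries. Average-linkage clustering of the correlations into 2 groups gave 27 genes around Cenpf and 15 around Birc5. The median correlation was 0.700 within the Cenpf group, 0.483 within the Birc5 group and 0.105 between them. The groups were formed from these same correlations, so higher values within than between them follow from the clustering. The closest pairs were Hmmr and Kif20b (0.971) in the first group and Cenpa and Cdca3 (0.862) in the second, and the most opposed were Cks1b and Prc1 (−0.641) and Cks1b and Anln (−0.622).

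**Figure D3:**
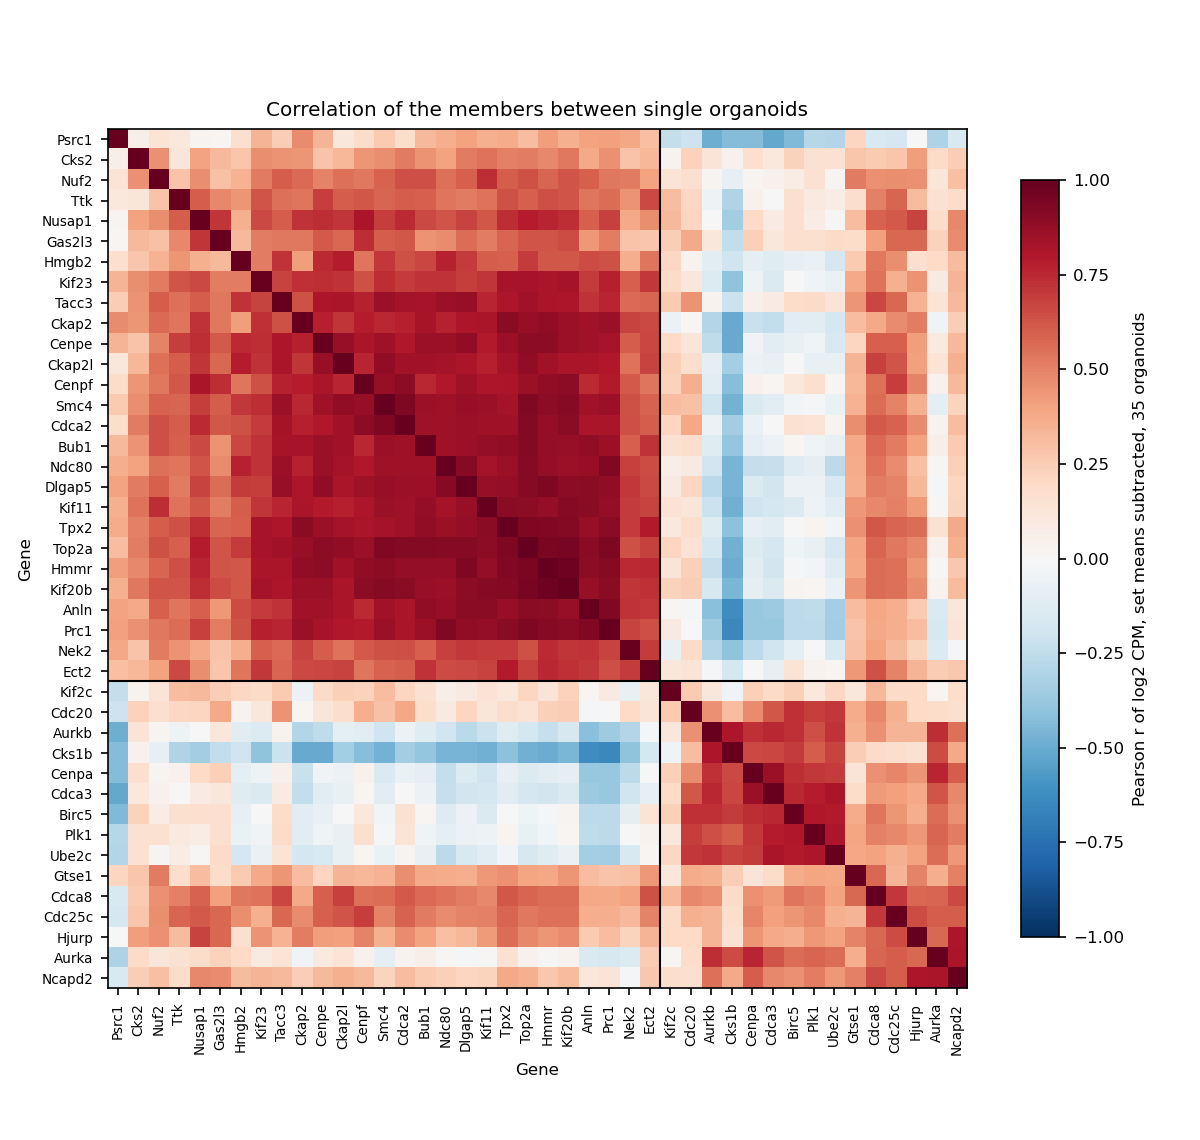
Pearson correlation of log2 CPM between each pair of the 42 genes (both axes, in the order of the clustering) over 35 single organoids after subtraction of set means, with black lines between the groups of 27 and 15 genes. The upper left block is mostly above 0.5, the lower right block holds a dark core from Aurkb to Ube2c, and Cks1b is negative against most genes of the larger group.

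The groups divided the roles unevenly. The Cenpf group held all 6 cytokinesis genes, 9 of 11 genes of the spindle, 4 of 5 of chromosome structure and 4 of 6 of the centromere and kinetochore. The Birc5 group held all 3 genes of the anaphase-promoting complex class (Cdc20, Ube2c and Cdca3) and 7 of 11 kinases and partners (Aurka, Aurkb, Birc5, Cdca8, Plk1, Cdc25c and Cks1b), with Cenpa, Hjurp, Ncapd2, Kif2c and Gtse1. Cdca8, Cdc25c, Hjurp, Gtse1 and Ncapd2 lay between the groups, since their median correlations with the Cenpf group were 0.545, 0.50, 0.419, 0.351 and 0.273 and those with the Birc5 group, in which they are counted, were 0.494, 0.425, 0.419, 0.365 and 0.510. For Cdca8 and Cdc25c the former was the higher value. In contrast, those of Cks1b, Aurkb, Cdca3, Cenpa and Ube2c with the Cenpf group were −0.408, −0.140, −0.113, −0.0902 and −0.0717. Kif2c, counted in the Birc5 group, was weakly correlated with both, at 0.151 with the Cenpf group and 0.195 with the Birc5 group.

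Mki67 followed the Cenpf group. Its correlation with the mean log2 CPM of that group was 0.986 in the 8 organoids of Set 1, 0.905 in the 10 of Set 2 and 0.979 in the 12 of Set 4, whereas with the Birc5 group it was 0.466, −0.533 and 0.367. The correlation between the means of both groups was 0.560, −0.559 and 0.271 in these sets. The value in Set 4 rests on organoid 13, the lowest of its set, since without it the correlation between groups was −0.0470, that of Mki67 with the Birc5 group was 0.107 and that of the Birc5 group with the library total was 0.452. The value in Set 1 rests on organoid 1, the lowest of the set in both groups, since without it the correlation between groups was 0.0224 and that of Mki67 with the Birc5 group was −0.0404. Set 3 has 5 organoids and no correlation is given. Organoid 1 of Set 1 also had the largest library, and the Cenpf group correlated with the log2 library total at −0.703 in Set 1, 0.258 in Set 2 and −0.790 in Set 4, compared with −0.810, −0.299 and −0.0196 for the Birc5 group. The part of library size in these relations was not tested beyond thinning all libraries to the smallest total, after which the median correlations were 0.656 and 0.433 within the groups and 0.0538 between them.

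**Figure D4:**
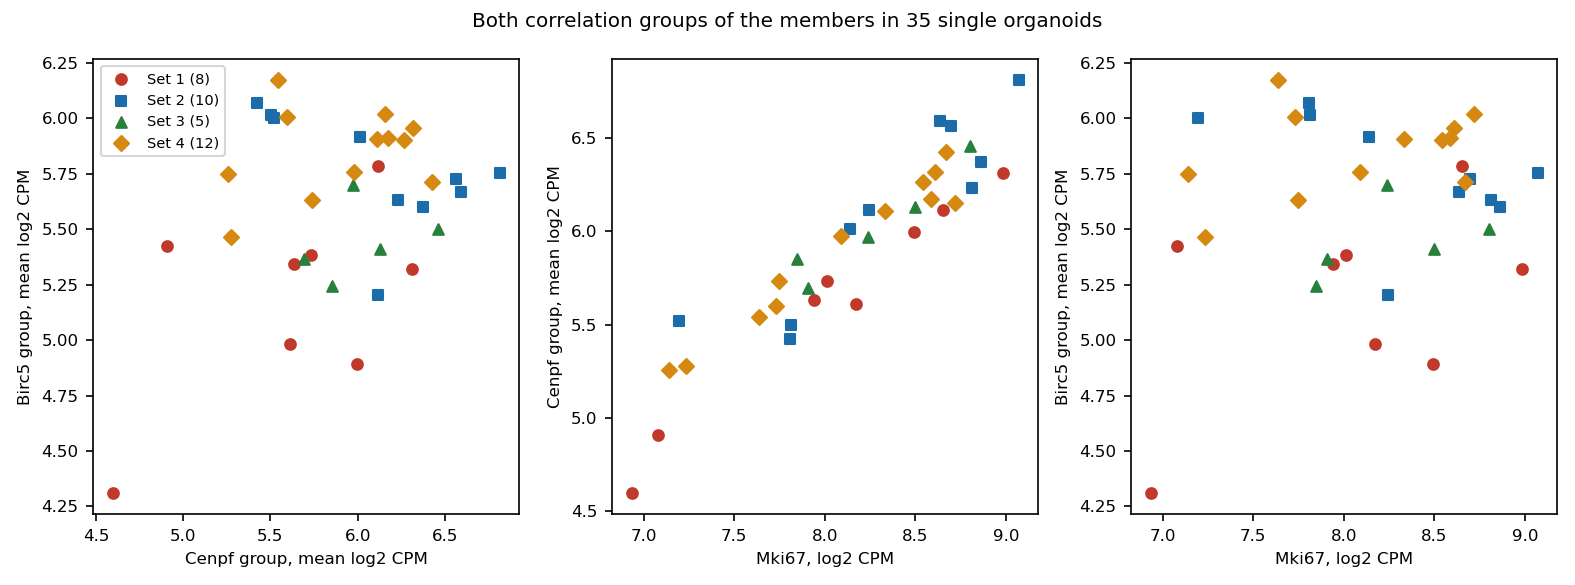
Mean log2 CPM of the Birc5 group against that of the Cenpf group (left), and the mean of the Cenpf group (centre) and of the Birc5 group (right) against log2 CPM of Mki67, with 1 point for each of 35 organoids coloured by set. The centre panel rises steeply in all sets, whereas no such line is seen in the right panel and organoid 1 of Set 1 lies alone at the lower left.

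The groups had different medians in the bulk comparisons, whose libraries were not used to define them. Between cultures, where 29.8% of all genes were called, the median log2 fold-change was −1.97 for the Cenpf group (26 of 27 genes called) and −1.43 for the Birc5 group (13 of 15). Between passages (20.3% of all genes called) it was 1.03 (18 of 27) and 1.50 (13 of 15). The groups overlapped, with ranges of −3.96 to −0.44 and −2.27 to −0.76 between cultures. Between passages the ranges were −0.10 to 1.80 and 0.22 to 2.11. Between Set 1 and Set 4 (20% of all genes called) the median was −0.20 for the Cenpf group, of which 2 genes were called, and −0.76 for the Birc5 group, of which 10 were called. Between Set 1 and Set 2 (14.3% of all genes called) it was −0.49 (5 called) and −0.60 (9 called). The order was the opposite between Set 1 and Set 3, at −0.42 and −0.19, and the signs differed between Set 2 and Set 4 (0.26 and −0.07) and between Set 3 and Set 4 (0.13 and −0.49). The sets are the libraries in which the groups were defined, although set means had been subtracted. No test is given for any of these differences, since the groups were formed after the values were seen.

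Genes of the groups differed in transcript length and base composition. The longest annotated coding transcript (GENCODE M21) had a median of 3526 bases in the Cenpf group (range 692 to 11130) and 1976 bases in the Birc5 group (range 849 to 4878), and a median GC content of 43.3% and 51.4%. Mki67 has a transcript of 10061 bases. Across the 42 genes, transcript length on a log scale had a Spearman correlation of −0.491 with the log2 fold-change between cultures, −0.434 with that between passages and 0.536 with that of Set 1 minus Set 4. Over all genes with a length the values were −0.322 (10988 genes), −0.342 (11199 genes) and 0.236 (11386 genes). In the other comparisons of sets the correlation with length across the 42 genes was 0.620 for Set 2 minus Set 4 and 0.633 for Set 3 minus Set 4, but 0.0492, −0.181 and −0.249 for Set 1 minus Set 2, Set 1 minus Set 3 and Set 2 minus Set 3. In the order of the first 3 comparisons named, GC content had correlations of 0.603, 0.417 and −0.387 across the 42 genes and 0.330, 0.0848 and −0.297 over all genes. Genes are not independent replicates, and these correlations across genes are descriptions. Length, GC content and group cannot be told apart, and their part in the fold-changes was not tested.

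**Figure D5:**
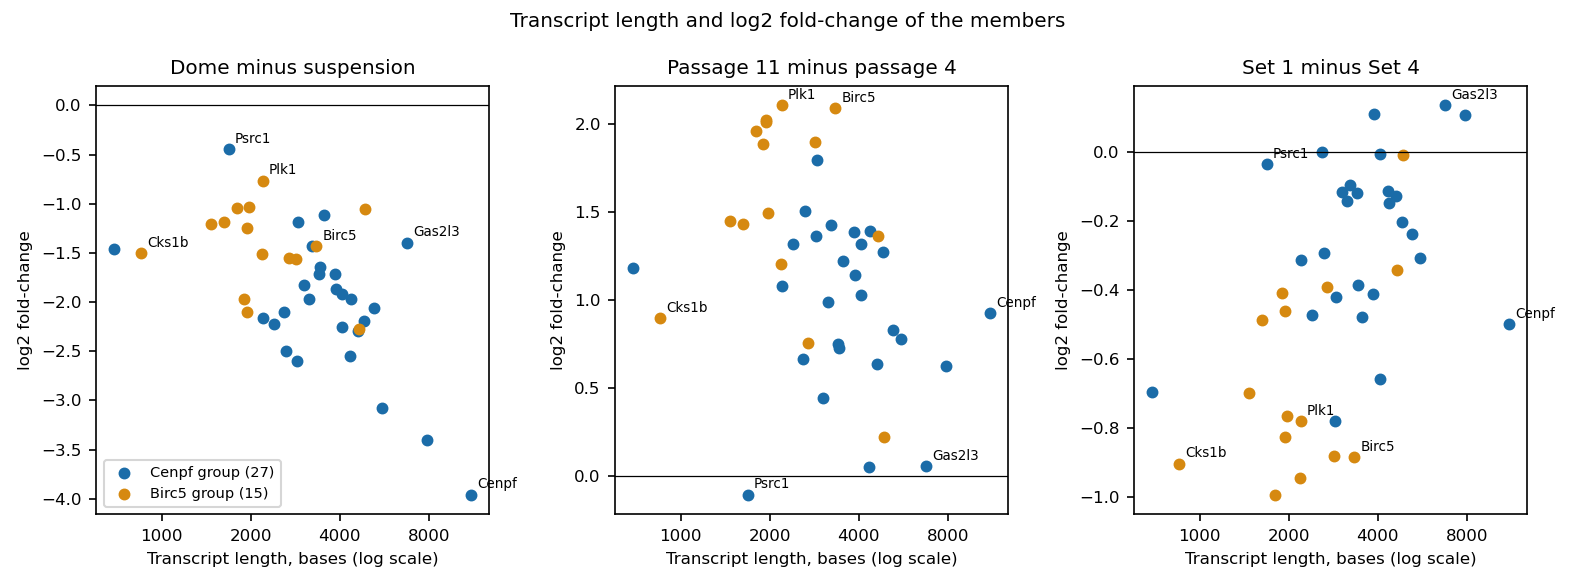
Log2 fold-change (y axis) against the length of the longest coding transcript (x axis, log scale) for the 42 genes in 3 comparisons, coloured by correlation group. Longer transcripts tend to lie lower in the first and second panels and higher in the third, with Cenpf at the far right and Cks1b and Cks2 at the far left.

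Either promoter element was about as frequent in both groups. TTTGAA or TTCGAA was found in 17 of 23 genes with a window in the Cenpf group (73.9%) and in 11 of 13 in the Birc5 group (84.6%), and CCAAT in the same numbers of genes.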

How the data were processed

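RNA-seq libraries of organoids in domes and suspension (3 and 3), of bulk cultures at passages 4 and 11 (3 and 3, each with 2 technical replicates) and of single organoids (35 kept of 42) were used. The authors deposited raw gene counts, made from 3′-end libraries with zUMIs, STAR and featureCounts on mm10 (GRCm38) with Ensembl annotation. Per the labels, SAMtools 1.9, R 3.6.3, edgeR 3.28.1 and limma 3.42.2 were also used. The methods name down-sampling within zUMIs according to library size. The sources do not state if the tables hold unique molecules or reads, or if they were made after that step. CPM of a gene were compared between libraries and not with those of other genes.

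Technical replicates were summed. Genes were filtered with filterByExpr (minimum count 3), libraries were normalised by TMM, and groups were compared with quasi-likelihood tests in edgeR 4.0.16 (R 4.3.3) on the deposited counts, with Benjamini-Hochberg adjustment over all genes and a threshold of 0.05. The 4 sets were fitted together and adjusted over all 6 comparisons. Log2 CPM used a prior count of 2. The test was tried on simulated data. Alternatives were limma-voom 3.58.1, DESeq2 1.42.0, other size factors and filters, thinned libraries, a replicate block and left-out libraries. A sign change of a value that was not called under either setting was counted as no change.

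Culture numbers were taken to stand for shared pools of mice, which the labels do not state. Deviations from the condition mean had correlations of 0.153, 0.165 and 0.191 between libraries of the same number, and no value is given for libraries of unlike number. Passage libraries of a set come from 1 mouse (r = 0.110, 0.0283 and 0.108). The set thus pairs the samples in the comparison of passages, whereas pairing by number in the comparison of cultures is an assumption. The values given come from the fit without the block, and the blocked value is printed beside a result where it changes the call. For single organoids the number is only a name.

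The genes and lists were chosen with earlier results of these data known. Genes were named by role: between cultures the 3 largest changes of each role and every gene not called, between passages the 2 smallest adj. P-values of each role, between sets the 10 called most often with ties by adj. P-value (Cenpa and Aurkb were named in addition after their values were seen), and for the spread the 5 largest and 5 smallest. Genes named beyond these were chosen after their values were seen.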

Additional observations from a re-analysis of the deposited data

Results flagged for a closer look

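In 3 of 126 groups of organoids (each gene in each set of 5 to 10), a single organoid lay apart from the rest of its set by Dixon's test, and chance would give about 6.3 at 1 in 20. Cdca2 was lowest in organoid 1 of Set 1 at 9.72 CPM, with the others between 22.5 and 44.6 CPM. Cdca3 was highest in organoid 5 of Set 3 at 76.0 CPM, with the others between 53.2 and 58.5 CPM. Ckap2 was highest in organoid 3 of Set 3 at 85.2 CPM, with the others between 29.1 and 39.2 CPM.

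Hjurp and Smc4 changed in opposite directions between passages in different sets, in both technical replicates of each. The log2 difference of passage 11 minus passage 4 between the means of the technical replicates was −0.37 for Hjurp in Set 1 and 0.54 in Set 3. For Smc4 it was −0.45 in Set 1 and 0.61 in Set 4. Such a separation of technical replicates is frequent, since it held for 24.2 to 34.9% of all genes in each direction and set. The technical replicates of Smc4 in Set 1 at passage 4 were themselves apart, at 78.3 and 52.3 CPM. These differences between sets were not tested, since each set has 1 culture per passage.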

How the results depend on the processing

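No fold-change that was called changed direction. Without 1 organoid, the correlation between the groups of genes changed sign in Set 4 and fell to 0.0224 in Set 1, as given above. Over 2076 comparisons of single genes with their value under an alternative, 1910 kept their side of the threshold, 144 lost it and 22 gained it. Between sets, only the 10 genes called most often entered this total. It also includes leaving out organoids of Set 3 in comparisons without that set, where no call of these 10 genes changed. Between cultures 37 to 41 of the 42 genes were called under other normalisations, filters and tools, and 32 to 41 when each library was left out. Between passages 21 to 33 were called, with 21 and 24 when only the first or the second technical replicate was used and 23 after thinning, and 21 to 31 when each library was left out. With culture number and set as replicate blocks, 40 and 32 genes were called, and no call changed other than those of Cdc20 and Gtse1.

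Between single organoids the counts were less stable. Between Set 1 and Set 2 (14 genes), 3 were called with all 42 organoids and 8 in a fit of these sets alone. Between Set 1 and Set 3 (3 genes), 1 was called with no filter, 5 by limma-voom, 0 with all 42 organoids and 1 in a fit of these sets alone. Between Set 2 and Set 3 (1 gene, with 5 at an unadjusted P-value below 0.05 in edgeR) 0 were called by limma-voom, with all 42 organoids, with adjustment within the comparison or in a fit of these sets alone, and 1 was called by DESeq2. Between Set 2 and Set 4 (4 genes) 0 were called with all 42 organoids, and between Set 3 and Set 4 (3 genes) 8 were called in a fit of these sets alone. Leaving out each organoid of Set 3, the only set of 5 or fewer, gave 12 to 14, 1 to 3, 12, 0 to 1, 4 to 5 and 3 to 5 genes for Sets 1 and 2, 1 and 3, 1 and 4, 2 and 3, 2 and 4, and 3 and 4. The organoid number is only a name, and with it as a replicate block 11, 2, 15, 1, 0 and 3 genes were called. The causes were not tested.

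The median standard deviation within sets was 0.495 after thinning and 0.508 with all 42 organoids. Chosen after seeing the data, thinning, all 42 organoids and a prior count of 0.5 gave median correlations of 0.656, 0.703 and 0.700 in the Cenpf group, 0.433, 0.464 and 0.484 in the Birc5 group and 0.0538, 0.0299 and 0.104 between them. The groups were kept as first formed, so these values do not show that new organoids would give the same groups. Counts of the 42 genes were fewest in dome 2, which held 660 of them among 1885591 counts. Dome 3 held 1905 among 1776490 counts, and dome 1 held 11863 among 14761853.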

Other observations

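The 7 organoids left out by the study had 666660 to 1152914 counts. Their mean log2 CPM over the 42 genes was 6.22 and 5.66 in Set 1, 5.49 in Set 2, 5.67 in Set 3 and 6.40, 6.34 and 6.01 in Set 4.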
